A study of Mus musculus with 6 samples.

Results

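The upstream inhibitors of YAP in the Hippo pathway are described here by 10 genes: the kinases Lats1 and Lats2, the angiomotins Amot, Amotl1 and Amotl2, the Kibra family members Wwc1 and Wwc2, and Nf2, Sav1 and Ptpn14. They were chosen by symbol and matched to probe sets annotated with exactly 1 gene symbol, and each gene had 1 such probe set, so all 10 were measured among the 19938 genes tested. Total RNA from isolated intestinal crypts, the pockets of gut epithelium where stem cells and their dividing progeny sit, was measured on Affymetrix arrays. There were 3 YAP Tg and 3 control arrays. Each was taken as 1 mouse, although only the control titles name a mouse. By the series title the YAP Tg mice carried YAP-S127A, a form of the coactivator YAP without the serine through which the Lats kinases hold it in the cytoplasm, under Villin-rtTA, which places a doxycycline-dependent activator in the epithelium of the gut. The series' design text gives doxycycline for 2 days to the mice as a whole and does not set the control mice apart. The labels call these only control, and the sources used here give neither their alleles nor a treatment of their own, so whether an effect of the drug is shared by both groups cannot be told. Age, sex, strain and the region of the intestine are likewise not given. The arrays measured whole crypt preparations, in which more cells of a type and more RNA per cell cannot be told apart.

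In the Hippo pathway the Mst kinases, with the adaptor Sav1, activate the Lats kinases, and these phosphorylate YAP and its paralog TAZ, which keeps them out of the nucleus. Nf2 (merlin) and Kibra bring the kinases to the cell cortex, and the angiomotins and the phosphatase Ptpn14 bind YAP directly and hold it at junctions or in the cytoplasm. In the nucleus YAP acts through the TEAD DNA-binding factors, and in several cultured cell types genes of its own inhibitors, Lats2 and Amotl2 among them, have been described as targets, an arrangement known as negative feedback. The comparison of YAP Tg with control crypts asked which of the inhibitors were higher when YAP was active and which paralogs were not.

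Of the 10 inhibitors, 4 rose and none fell. Wwc2 was 17.2-fold higher in YAP Tg than in control crypts, Wwc1 4.05-fold, Amotl2 3.29-fold and Lats2 3.13-fold. Each of the 3 families thus held at least 1 gene that rose, and the Lats and angiomotin families also held genes that did not pass the test, Lats1, Amot and Amotl1. Nf2, Sav1 and Ptpn14 did not pass it either. A gene was called when limma's p, after Benjamini-Hochberg adjustment across the 19938 genes, was below 0.05. By that rule 7.50% of all genes were higher and 6.70% lower in YAP Tg crypts, 14.2% together. The median log2 change was 0.28 over the 10 inhibitors and 0.03 over all genes. The groups did not overlap for 7 of the inhibitors, 6 of them with every YAP Tg array above every control array and 1, Nf2, with every YAP Tg array below. Of all genes, 16.5% were separated upward in this way and 17.0% downward. By limma's test the 4 calls were also made without each array in turn, and without YAP Tg mouse 2 there were 5 higher, with Sav1 added, and 1 lower, Nf2. With all arrays, 0 inhibitors passed limma's test downward, Nf2 being the 1 inhibitor that was lower at an unadjusted p under 0.05, and Nf2 was called with array weights.

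**Figure D1:**
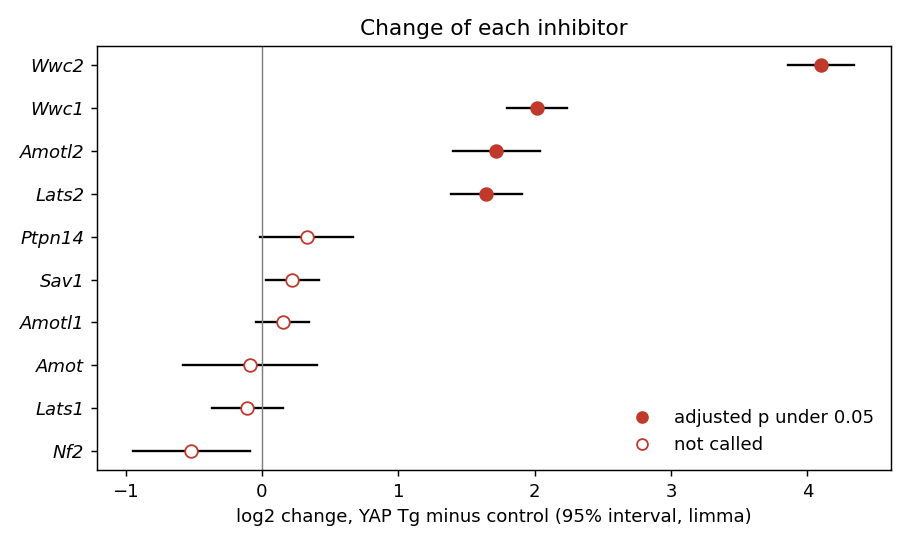
Log2 change of each inhibitor, YAP Tg minus control (horizontal axis), with limma's 95% interval as a bar, not adjusted for the number of genes. Filled points mark an adjusted p under 0.05: the intervals of Wwc2, Wwc1, Amotl2 and Lats2 lie above 1. The intervals of Nf2 (below 0) and Sav1 (above 0) exclude 0 without passing the adjusted threshold, and the other 4 include 0.

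The medians of the tested genes lay between 6.74 and 6.79 in all arrays. Over all probe sets the medians were 6.32, 6.22 and 6.31 in YAP Tg mice 1, 2 and 3. In control mice 1, 2 and 3 they were 6.21, 6.19 and 6.25. With 3 arrays per group, the number of arrays limits precision. Among the YAP Tg arrays, the root mean square deviation of all genes from the control mean was 0.69, 0.49 and 0.54 in mice 1, 2 and 3, so mouse 2 lay closest to the controls. The counts over all genes, 1495 higher and 1336 lower, moved with the arrays used: they were 2802 and 3889 without YAP Tg mouse 2, 669 to 737 and 369 to 462 without one of control mice 1, 2 and 3, and the lower genes numbered 890 and 811 without YAP Tg mouse 1 and mouse 3. Probe sets treated as array controls, those with identifiers below the lowest annotated one, had a median of 5.17 ± 0.15 in YAP Tg and 4.97 ± 0.013 in control arrays (SD, n = 3 each). As checks of YAP activity, the matricellular genes Ccn1 and Ccn2, known targets of YAP and TEAD, were 4.49 (SE 0.080) and 1.65 (SE 0.14) higher on the log2 scale, with limma's adjusted p of 2.11e-05 and 0.00159. They belong to a list of 21 described targets, taken up below. Of that list 8 rose, against 7.50% of all genes, and 13 were not called. Yap1 stood at 8.98, 9.27 and 9.25 in YAP Tg and 9.43, 9.48 and 9.30 in control arrays (limma's adjusted p = 0.184). The sources used here do not say whether its probe set reads the transgene, so it does not check the labels. Of 11 markers of intestinal epithelium, 3 rose and 4 fell. Krt18, Cdh1 and Krt8, genes of epithelial keratins and of E-cadherin, rose by 1.53, 0.45 and 0.28, and the stem cell markers Lgr5, Olfm4 and Ascl2 and the intestinal transcription factor gene Cdx1 changed by -1.76, -3.19, -1.83 and -0.97. Their part in the changes of the inhibitors was not tested. Of the 4 that did not pass the test, Vil1 stood at 12.47 to 12.58 in YAP Tg and 12.34 to 12.48 in control arrays, and Epcam at 11.68 to 11.96 in YAP Tg and 11.63 to 11.73 in control arrays. Krt19 stood at 12.8 to 13.1 in YAP Tg and 12.7 to 12.9 in control arrays. Cdx2 ran the other way, at 9.65 to 10.48 in YAP Tg and 10.34 to 10.52 in control arrays. The summed linear signal of the 11 markers was 43732 to 46469 in YAP Tg and 42523 to 44781 in control arrays.

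Lats1 and Lats2 are the kinases that phosphorylate YAP directly. Lats2 rose in YAP Tg crypts and Lats1 did not pass the test. Lats2 stood at log2 signals of 8.61, 8.30 and 8.44 in YAP Tg mice 1, 2 and 3, against 6.70, 6.92 and 6.80 in control mice 1, 2 and 3. The lowest YAP Tg value lay above the highest control value, and the spread within a group was small beside the gap. The log2 change was 1.65 (SE 0.11; limma's adjusted p = 0.000872), which placed Lats2 at rank 180 of the 19938 genes by change. Lats1 stood at 9.68, 9.94 and 9.92 in YAP Tg arrays, against 10.02, 10.03 and 9.81 in control arrays. Its groups overlapped, and its log2 difference was -0.11, with a 95% interval from -0.37 to 0.15 (limma's adjusted p = 0.545). The upper bound of that interval lies far below the change of Lats2, though a smaller difference in either direction lies within it.

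RefSeq promoter windows, taken on the mouse assembly GRCm38.p6 from 250 bases before to 50 bases after an annotated transcription start, were available for all 10 inhibitors, 12 windows in all. They were searched on both strands for the core of the TEAD binding motif, GGAATG, which reads CATTCC on the other strand. The windows of the Lats pair are shown because one paralog rose and the other did not, each 5′ to 3′ on the strand of its gene with TEAD core matches in capitals. The Lats2 window at chr14:57746074-57746373 (minus strand) held 1 match, whose leftmost base lay at position 5 after the start, counting the start as 1. The Lats1 window at chr10:7680959-7681258 (plus strand) held none. A further Lats2 window, at chr14:57734369-57734668, held none either.
Lats2: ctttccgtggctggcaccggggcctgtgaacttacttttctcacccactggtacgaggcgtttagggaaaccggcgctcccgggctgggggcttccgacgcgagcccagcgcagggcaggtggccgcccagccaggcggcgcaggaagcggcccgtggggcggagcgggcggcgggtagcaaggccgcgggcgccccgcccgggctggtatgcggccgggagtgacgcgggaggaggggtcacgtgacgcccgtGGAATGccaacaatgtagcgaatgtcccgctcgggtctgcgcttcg
Lats1: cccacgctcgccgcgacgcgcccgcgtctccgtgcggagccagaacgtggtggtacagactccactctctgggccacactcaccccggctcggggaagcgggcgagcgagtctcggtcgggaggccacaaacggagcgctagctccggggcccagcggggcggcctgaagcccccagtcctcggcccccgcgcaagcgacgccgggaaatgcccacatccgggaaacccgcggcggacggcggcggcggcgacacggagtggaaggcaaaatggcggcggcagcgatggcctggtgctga

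The angiomotins are junction-associated proteins that bind YAP. Amotl2 rose in YAP Tg crypts, and Amot and Amotl1 did not pass the test. Amotl2 stood at 9.13, 8.78 and 8.71 in YAP Tg mice 1, 2 and 3, against 7.03, 7.26 and 7.17 in the control mice. All YAP Tg values were above all control values, and the log2 change was 1.72 (SE 0.13; limma's adjusted p = 0.00112). Amotl1 stood at 6.65, 6.53 and 6.56 in YAP Tg arrays, against 6.51, 6.32 and 6.46 in control arrays. These groups did not overlap either, but the gap between them was narrow, and the log2 difference of 0.15 (SE 0.081) missed the threshold (limma's adjusted p = 0.261). Amot stood at 6.50, 7.31 and 6.84 in YAP Tg arrays, against 7.08, 6.96 and 6.88 in control arrays. YAP Tg mouse 1 held the lowest and mouse 2 the highest of the 6 values, so the YAP Tg mice spanned the whole control range. The difference of -0.091 had a 95% interval from -0.58 to 0.40 (limma's adjusted p = 0.793), and without YAP Tg mouse 1 it was 0.10 (limma's adjusted p = 0.743).

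The Amotl2 window, at chr9:102717554-102717853 (plus strand), is shown as that of the angiomotin that rose. It held 1 match to the TEAD core, written CATTCC on the strand of the gene, with its leftmost base 65 bases before the start. The windows of Amot and Amotl1 held none.
Amotl2: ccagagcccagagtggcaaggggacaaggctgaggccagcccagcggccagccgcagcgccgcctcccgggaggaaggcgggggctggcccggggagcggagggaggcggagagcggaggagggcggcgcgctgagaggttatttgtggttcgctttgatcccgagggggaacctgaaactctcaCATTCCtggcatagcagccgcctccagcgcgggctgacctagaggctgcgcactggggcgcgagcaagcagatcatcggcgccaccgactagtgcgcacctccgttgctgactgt

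Wwc1, which encodes Kibra, and its relative Wwc2 are scaffold proteins that act with merlin on the Lats kinases. Both rose, and Wwc2 had the largest change among the 10 inhibitors. Wwc2 stood at 9.44, 9.50 and 9.76 in YAP Tg mice 1, 2 and 3, against 5.50, 5.47 and 5.42 in the control mice. Its control values lay not far above the array control level of 4.97, so its change may be understated if that level marks background. The log2 change was 4.10 (SE 0.10; limma's adjusted p = 7.37e-05), rank 8 of all genes by change and rank 2 by p-value. Wwc1 stood at 10.25, 10.15 and 10.16 in YAP Tg arrays, against 8.26, 8.23 and 8.01 in control arrays. Its YAP Tg values lay close together, and it was 2.02 higher on the log2 scale (SE 0.092; limma's adjusted p = 0.000471), rank 108 by change.

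The windows of this pair are shown because both genes rose but their windows differed in TEAD core matches. The Wwc2 window, at chr8:47990495-47990794 (minus strand), held 3 matches, with leftmost bases 203, 94 and 79 bases before the start. The Wwc1 window, at chr11:35980478-35980777 (minus strand), held none.
Wwc2: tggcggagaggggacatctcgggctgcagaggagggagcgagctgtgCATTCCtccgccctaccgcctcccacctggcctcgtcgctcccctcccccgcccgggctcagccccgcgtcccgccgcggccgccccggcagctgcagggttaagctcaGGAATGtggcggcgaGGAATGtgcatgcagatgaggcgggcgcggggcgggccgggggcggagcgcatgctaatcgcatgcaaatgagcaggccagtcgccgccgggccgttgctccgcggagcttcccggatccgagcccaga
Wwc1: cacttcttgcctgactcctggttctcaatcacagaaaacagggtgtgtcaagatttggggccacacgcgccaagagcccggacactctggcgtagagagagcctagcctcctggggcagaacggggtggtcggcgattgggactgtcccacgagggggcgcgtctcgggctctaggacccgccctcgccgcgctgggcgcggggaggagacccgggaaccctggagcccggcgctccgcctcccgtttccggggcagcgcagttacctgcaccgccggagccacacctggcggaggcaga

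Over all 32851 RefSeq windows, 14.7% held at least 1 match to the TEAD core, and 0.131% held 3 or more. Counted by gene, 16.6% of 27025 genes had a match in at least 1 window. Among the inhibitors 5 of 10 did: 3 of the 4 that rose, Lats2, Amotl2 and Wwc2, and 2 of the 6 that were not called, Sav1 and Ptpn14. Wwc1 rose without a match. Whether a match and a rise go together was not tested. The AP-1 motif TGANTCA, where N is any base, was in no window of an inhibitor and in 7.81% of all windows. With no AP-1 match, an overlap of the motifs could not occur in these windows. A match is no evidence of binding, and the absence of a match concerns only these windows.

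**Figure D2:**
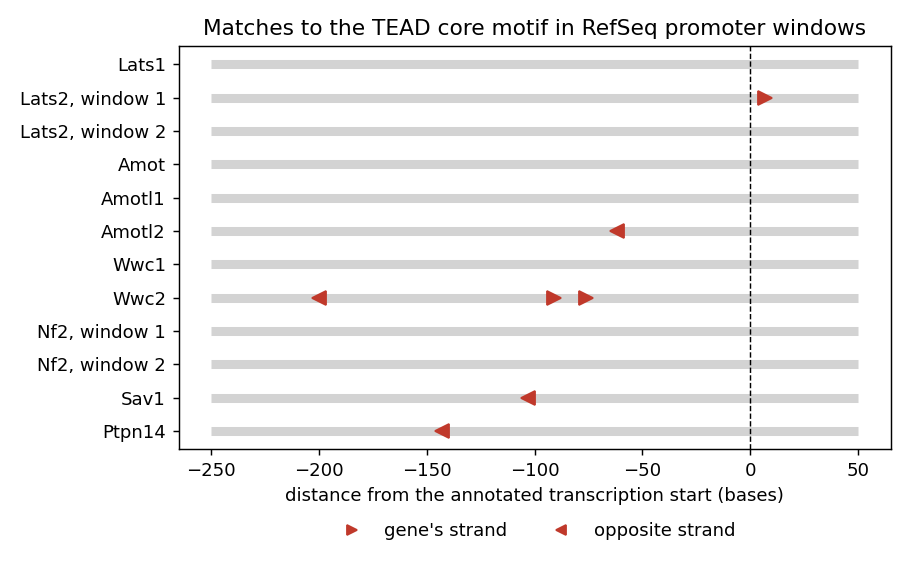
Positions of TEAD core matches (triangles, pointing right on the strand of the gene and left on the opposite strand) in the RefSeq promoter windows of the inhibitors. The horizontal axis is the distance in bases from the annotated start, marked by the dashed line; the Wwc2 window holds 3 matches, those of Lats2 (window 1), Amotl2, Sav1 and Ptpn14 hold 1 each, and the others none.

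None of Nf2, Sav1 and Ptpn14 passed the test with all arrays, and their measured differences ran in different directions. Nf2, which encodes merlin, stood at 8.16, 8.88 and 8.45 in YAP Tg mice 1, 2 and 3, against 9.02, 9.02 and 9.00 in the control mice. All YAP Tg values lay below all control values, but YAP Tg mouse 2 was close to the controls and mouse 1 farthest from them. The log2 difference of -0.52 (SE 0.18) missed the threshold (limma's adjusted p = 0.113), and it passed at -0.71 without YAP Tg mouse 2 (limma's adjusted p = 0.00536) and at -0.59 with array weights (limma's adjusted p = 0.011). The order of the YAP Tg mice in Nf2 was also that of their deviation over all genes, largest in mouse 1 and smallest in mouse 2; the part of that overall deviation in the Nf2 difference was not tested.

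Sav1, the adaptor of the Mst kinases, stood at 8.72, 8.52 and 8.59 in YAP Tg arrays, against 8.40, 8.44 and 8.32 in control arrays. The groups were separate by a narrow gap, and the difference of 0.22 (SE 0.080) had limma's adjusted p = 0.127, or 0.0448 without YAP Tg mouse 2. Ptpn14, the phosphatase that binds YAP, stood at 6.89, 7.36 and 7.12 in YAP Tg arrays, against 6.70, 6.73 and 6.95 in control arrays. YAP Tg mouse 1 lay below control mouse 3, and the difference of 0.33 (95% interval -0.011 to 0.67) missed the threshold (limma's adjusted p = 0.177). An increase of Ptpn14 of up to about 0.67 on the log2 scale therefore lies within the interval.

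**Figure D3:**
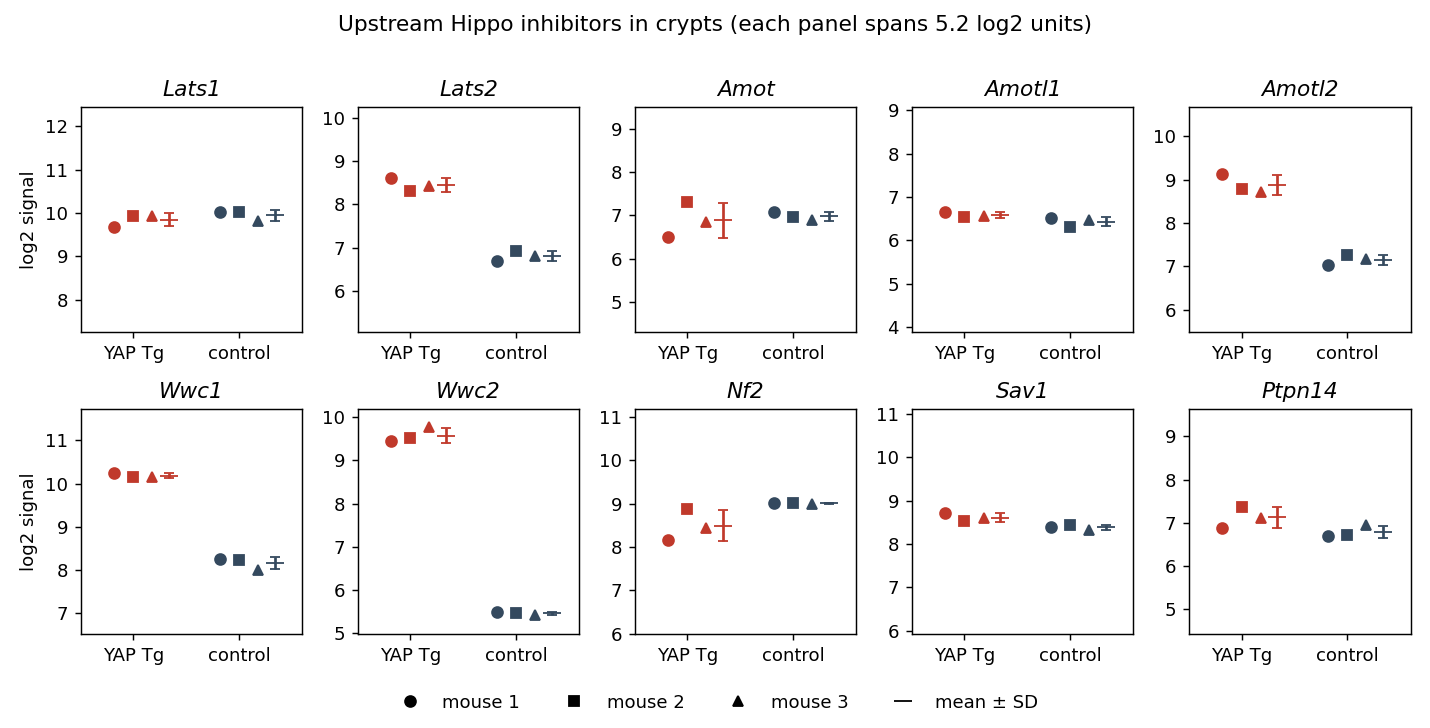
Log2 signal (vertical axis, each panel with the same span but its own range) of each inhibitor in YAP Tg (left, red) and control (right, dark) crypts, with 1 symbol per mouse and the mean ± SD (n = 3) beside it. The groups are far apart for Lats2, Amotl2, Wwc1 and Wwc2, overlap for Lats1, Amot and Ptpn14, and are narrowly separate for Amotl1, Sav1 and Nf2.

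The 4 genes that rose were higher in every YAP Tg mouse. Set against the control mean, Lats2 was higher by 1.81, 1.50 and 1.63 in YAP Tg mice 1, 2 and 3. Amotl2 was higher by 1.98, 1.63 and 1.55. Wwc1 was higher by 2.08, 1.98 and 1.99, and Wwc2 by 3.97, 4.04 and 4.29. Mouse 2, closest to the controls over all genes, had the smallest increase of Lats2 and Wwc1 but not of Amotl2 or Wwc2. Of the inhibitors not called, Lats1, Amot, Nf2 and Ptpn14 had their highest YAP Tg values in mouse 2, and Amotl1 and Sav1 did not.

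Whether paralogs differed in their change was tested on the difference between 2 paralogs within each array, for 5 pairs. Different probe sets have different brightness, so only the shift of this difference between groups is read. With 3 arrays against 3, an exact two-sided permutation test over the 20 splits cannot give a p below 0.1, so no pair could pass it. Lats2 minus Lats1 was -1.06, -1.63 and -1.49 in YAP Tg arrays, against -3.32, -3.11 and -3.01 in control arrays. These values did not overlap, and Lats2 changed by 1.75 more than Lats1 (exact permutation p = 0.1, adjusted over the 5 pairs 0.125). With the differences added to the table of all genes and tested by limma, the 95% interval of this excess was 1.35 to 2.16 (limma's p adjusted over the 5 pairs = 5.42e-05). Limma draws the variance of each difference toward that of single genes, although a difference carries the variance of 2 probe sets. Limma's intervals for the pairs may therefore be too narrow and its p-values too small.

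Amotl2 changed by 1.57 more than Amotl1 (limma's interval 1.23 to 1.91) and by 1.81 more than Amot (1.10 to 2.52). Wwc2 changed by 2.08 more than Wwc1 (1.79 to 2.38). In each of these 3 pairs the arrays of the groups did not overlap. Each pair, like that of Lats2 and Lats1, holds a gene already called. The share of all gene pairs that separate was not computed, and of single genes 16.5% were separated upward and 17.0% downward. The exact permutation p was the smallest the design allows, 0.1 (0.125 adjusted). Limma's p adjusted over the 5 pairs was 5.42e-05, 0.000886 and 8.31e-06. The pair of Amotl1 and Amot did not separate. Amotl1 minus Amot was 0.15, -0.78 and -0.28 in YAP Tg arrays, against -0.57, -0.65 and -0.43 in control arrays (difference 0.24, limma's interval -0.31 to 0.80, exact permutation p = 0.5). This does not show that Amotl1 and Amot behaved alike, since the interval covers differences of up to 0.80.

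**Figure D4:**
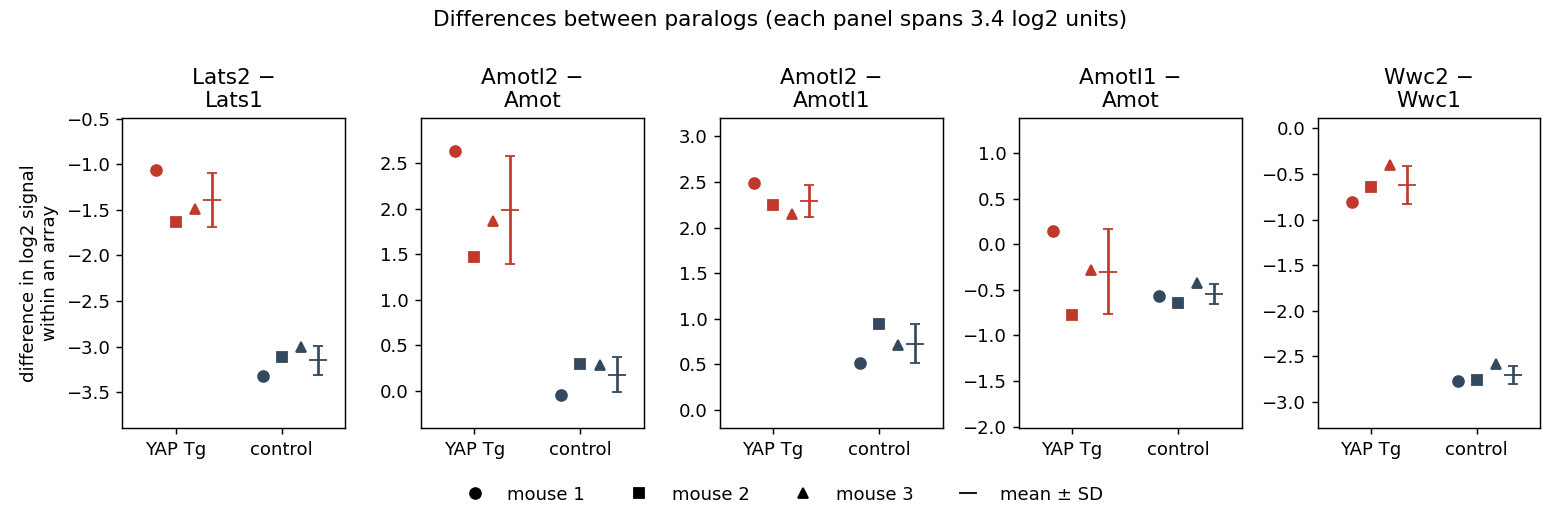
Difference in log2 signal between paralogs within each array (vertical axis), in YAP Tg (left, red) and control (right, dark) crypts, with 1 symbol per mouse and the mean ± SD (n = 3). The groups are separate for Lats2 against Lats1, Amotl2 against Amot, Amotl2 against Amotl1 and Wwc2 against Wwc1, and overlap for Amotl1 against Amot.

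The genes whose pattern over the 6 arrays was most like that of each called inhibitor were found by the root mean square difference of their deviations from the control mean. Genes with symbols that look like clone or predicted names (Gm, LOC, Rik) were left out of this comparison. Lats2 was nearest to Pld2, a phospholipase D, at 0.080 on the log2 scale, then to Pard6b, a polarity protein, at 0.085 and to Amotl2 at 0.093. Amotl2 was nearest to Eif2s2, a subunit of translation initiation factor eIF2, at 0.050, to Ly6g2 at 0.088 and to Lats2. Lats2 and Amotl2 were thus among each other's 3 nearest genes of those compared. Wwc1 was nearest to Rflnb at 0.092, to the calcium-binding protein gene S100a11 at 0.094 and to Tead1, a DNA-binding partner of YAP, at 0.096. Wwc2 was nearest to Ajuba at 0.21, to Ccn1 at 0.31 and to the protease calpain 2, Capn2, at 0.35. The measure takes in the size of the group difference, which these genes share with the inhibitor.

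Of 46 other genes of the Hippo pathway, 39 were measured; 14 rose and none fell. The list was chosen with earlier results of these data known, its median log2 change was 0.21, and 7.50% of all genes rose. Without control mouse 1, 2 or 3 the count was 9, 9 and 8. Other genes of the kinase core did not pass the test. Stk4, the gene of an Mst kinase, stood at 9.56 to 9.75 in YAP Tg and 9.39 to 9.63 in control arrays (limma's adjusted p = 0.369). Mob1a and Mob1b, which encode the coactivator of the Lats kinases, stood at 8.80 to 9.06 and 9.93 to 10.01 in YAP Tg arrays, against 8.94 to 9.11 and 9.91 to 10.01 in control arrays (limma's adjusted p = 0.624 for Mob1a and 1.00 for Mob1b). Stk3 was not analysed here.

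Genes that act against the Lats kinases were among those that rose. The LIM protein genes Ajuba and Wtip, whose products bind and restrain Lats kinases, rose by 3.94 (SE 0.14) and 1.20 (SE 0.19). Limd1, of the same family, stood at 7.85, 8.67 and 8.14 in YAP Tg arrays, against 8.80, 8.96 and 8.75 in control arrays, a difference that missed the threshold (limma's adjusted p = 0.109). Strn3, a subunit of a phosphatase complex that acts on the Mst kinases, rose by 0.60 (SE 0.094). The transcriptional partners Tead1, Wwtr1 (which encodes TAZ) and Tead4 rose by 2.05, 1.90 and 0.84, while Tead2 and Tead3 differed by -0.18 and 0.01 and did not pass the test.

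Upstream activators and apical scaffolds also rose in part. Rassf1, a scaffold that binds the Mst kinases, rose by 1.10 (SE 0.13), and Taok3, of the TAO kinase family that phosphorylates Mst kinases, by 0.59 (SE 0.068). Of the apical Crumbs complex, Patj rose by 1.09 (SE 0.18), Mpp5, which encodes Pals1, by 0.85 (SE 0.19) and Crb3 by 0.76 (SE 0.11). Csnk1e, of the casein kinase family that marks phosphorylated YAP for degradation, rose by 0.49, and Ctnna1, the alpha-catenin of adherens junctions, by 0.58. Limma's adjusted p for the 14 genes ran from 0.000274 for Ajuba to 0.0331 for Mpp5.

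The remaining gene of the 14, Map4k1, is a kinase best known in blood cells. It rose by 1.07 (SE 0.10; limma's adjusted p = 0.00206). Of 5 leukocyte genes listed as T cell markers 4 rose as well, Cd3e, Cd3g, Cd8a and Ptprc, and Cd2 did not pass the test. The summed linear signal of the 5 was 7344 to 7686 in YAP Tg arrays, against 2516 to 3169 in control arrays. Its part in the change of Map4k1, or of any inhibitor, was not tested. Of 7 stromal markers 1, Vim, rose, with a summed signal of 1596 to 2138 in YAP Tg and 1163 to 1245 in control arrays. None of 4 endothelial markers passed limma's test, and their summed signal was 211 to 229.7 in YAP Tg and 190.5 to 204 in control arrays. Of 4 myeloid markers Csf1r rose and Itgam fell, with a summed signal of 821 to 937 in YAP Tg and 859 to 1232 in control arrays.

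**Figure D5:**
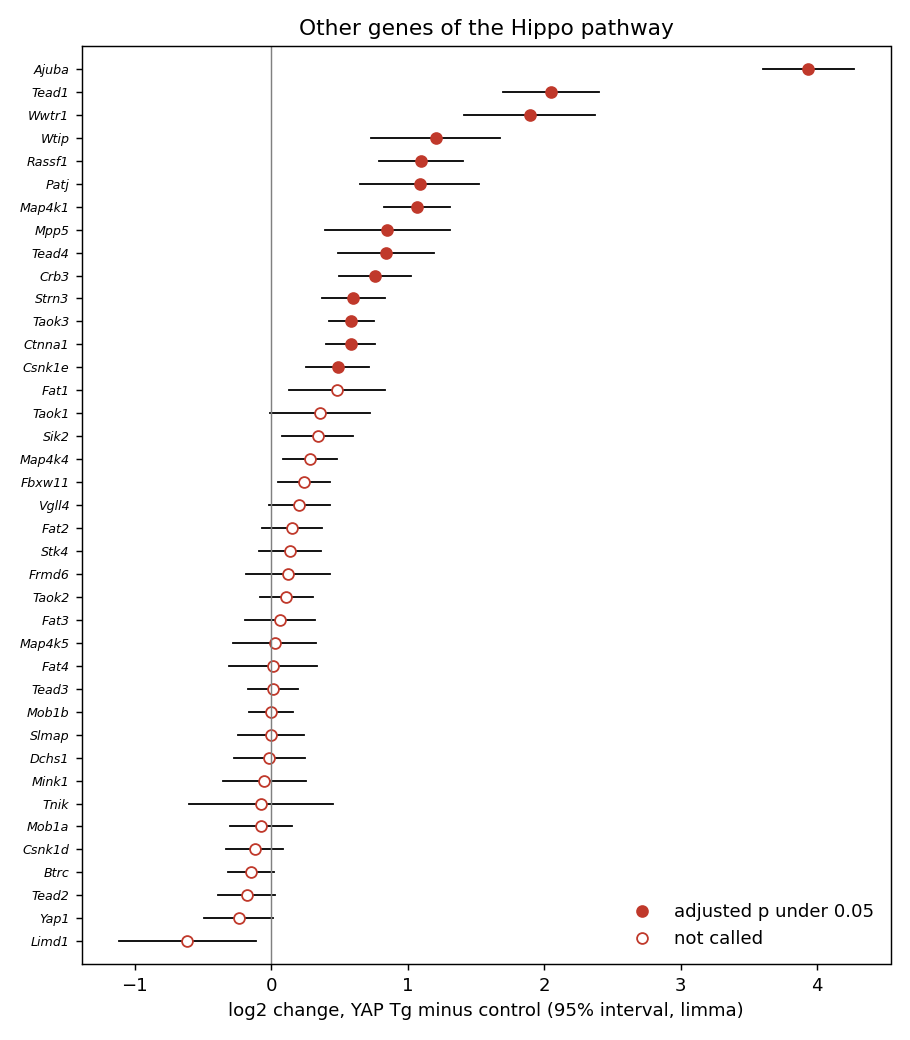
Log2 change, YAP Tg minus control (horizontal axis), of 39 other genes of the Hippo pathway with limma's 95% intervals, not adjusted for the number of genes. Filled points mark an adjusted p under 0.05: 14 genes are higher, with Ajuba at 3.94, and none is lower.

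A list of 21 genes described as YAP and TEAD targets, which includes 3 of the inhibitors, held 8 that rose and none that fell. The other 13 were not called, and the median log2 change of the list was 0.34. Of all genes, 7.50% were higher and 6.70% lower. The inhibitors Lats2 and Amotl2 were among the 8, with changes like that of Ccn2 (1.65), and Ptpn14 was not. Outside this list, Wwc2 changed by an amount near that of Ccn1, 4.10 and 4.49 on the log2 scale.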

How the data were processed

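The authors deposited log2 signals for 35556 probe sets on 6 arrays, which per the submitters' processing notes came from Affymetrix Expression Console 1.1; for background correction, normalization, probe summary and build the sources used here give nothing. That the deposited values are log2 was inferred from their span, 1.99 to 14.4. As presumed array controls, 6617 probe sets with identifiers below the lowest annotated one were left out. Of the remaining 28939, 21789 had 1 gene symbol, 1621 had several and the others were unnamed here. The brightest probe set by mean represented each gene, 19938 in all. Symbols were matched by Entrez identifier to RefSeq for 21698 probe sets, which changed 0.

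Groups and mouse numbers came from the sample titles. The control titles name a mouse, and the YAP Tg titles give only a number. That each YAP Tg array is a separate mouse was therefore assumed. Limma's p-values set a group difference against the spread between the arrays within groups, moderated over all genes. Differences, YAP Tg minus control, were tested two-sided by limma's lmFit and eBayes without covariates (limma 3.58.1, R 4.3.3; Benjamini-Hochberg over all genes, threshold 0.05). The test was checked on simulated data for these 19938 genes: true log2 changes of 1 were called in 75% of cases and those of 2 in 87%, and 2.99% of calls were false. The simulated noise was independent between genes, and changes were given to far fewer genes than were called in the real data. The check therefore does not cover deviations that many genes of an array share, and these shares may not hold for the real arrays. Promoter windows are RefSeq's on GRCm38.p6. The inhibitors and gene lists were chosen with earlier results of these data known. Genes named are all inhibitors, Ccn1, Ccn2 and Yap1, the core kinase genes, all other Hippo genes past the test and the 3 genes most like each called inhibitor; Limd1, Tead2, Tead3 and markers were named after their values were seen. Alternatives were leaving out each array, a signal filter, quantile normalization, median centring, mouse number as a block, a trended robust prior, array weights, probe set averaging and other thresholds.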

Additional observations from a re-analysis of the deposited data

How the results depend on the processing

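Lats2, Amotl2, Wwc1 and Wwc2 kept their direction and limma's call under all 13 alternative fits each, with changes of 1.56 to 1.72, 1.59 to 1.80, 1.94 to 2.11 and 4.01 to 4.17 and adjusted p up to 0.0154. Leaving out 1 array gave 4 to 5 inhibitors higher and 0 to 1 lower; array weights gave 1 lower. Lats1, Amot, Amotl1 and Ptpn14 were called in none (Amotl1 could not be tested among genes above the median signal), and Nf2 and Sav1 as given above; Amot had a positive value without YAP Tg mouse 1. Every inhibitor had 1 probe set, so no other probe set was tested. Of other Hippo genes, 8 to 15 were higher and 0 to 1 lower with 1 array left out, 8 higher at an adjusted p under 0.01, and 1 lower with array weights. Over all genes, leaving out 1 array gave 669 to 2802 higher and 369 to 3889 lower; array weights gave 2459 and 3481, a threshold of 0.01 gave 661 and 386, and 0.10 gave 2101 lower. The cause of these shifts was not tested. The paralog differences passed by limma where the exact test could not: 1.75 for Lats2 minus Lats1, 1.81 for Amotl2 minus Amot, 1.57 for Amotl2 minus Amotl1 and 2.08 for Wwc2 minus Wwc1, with or without the replicate block (adjusted p up to 0.00466 with it). They were 1.59 to 1.87, 1.49 to 2.07, 1.47 to 1.68 and 1.98 to 2.18 with 1 array left out, and 0.016 to 0.48 for Amotl1 minus Amot.

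Mouse numbers are shared between the groups only as numbers: deviations of same-numbered arrays correlated at -0.13, 0.012 and 0.098, and not every array correlated best with its own number. With the replicate block, 975 genes were higher and 727 lower, and it changed no call of an inhibitor. Only 3 arrays per group, 1 probe set per inhibitor and an unstated normalization limit these results, and cross-hybridisation between paralogs was not tested.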
